A study of Mus musculus with 18 samples.

Results

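The 10 genes described here encode enzymes of NAD, tryptophan and itaconate metabolism: *Nampt*, *Naprt*, *Nmnat1*, *Nmnat3*, *Cd38*, *Bst1*, *Ido1*, *Kynu*, *Kmo* and *Acod1*. They were chosen by symbol with their levels in these libraries already known, that is, selected on the counts, scaled to 1000000 a library (CPM), of stimulated against unstimulated cells of the same file layout. Comparisons with unstimulated cells are therefore given for these genes as a description only, and calls among them are no independent support. All 10 were found among the 55029 genes listed in one file layout and the 54232 in the other. After the filter on low counts, 6 were tested in the first layout and 8 in the second.

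RNA was sequenced in 18 libraries of mouse eosinophils. The cells were washed from the peritoneal cavity of C57BL/6 mice of the NJ.1638 line, which carry an *Il5* transgene (its promoter is not given in the sources used here), and were enriched by negative selection against Thy1.2 and B220. Every group, controls included, thus shared strain, transgene and selection. A first set of 12 libraries held unstimulated cells (libraries a, b and c) and cells kept for 18 h with heat-inactivated *E. coli*, with IFN-γ at 50 ng/ml, or with both agents, with 3 libraries in each group. A second set of 6 libraries held 3 of unstimulated cells (d, e and f) and 3 of cells kept for 18 h with IL-4 at 100 ng/ml. Age and sex of the mice and the incubation time of unstimulated cells are not given in the sources used here. The study calls the libraries of a group biological replicates, but whether they came from separate mice or cultures is not given in the sources used here, so p-values measure only the spread between these libraries, which may be technical.

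Total counts on genes ran from 1523808 to 2734041 in the first set and from 3625036 to 6482289 in the second, so that 3 counts, used here as a detection floor, were worth 1.10 to 1.97 CPM and 0.463 to 0.828 CPM. Intervals and floors in the text cover counting error only, and standard errors (SE) are approximate. The highest count of any gene was at least 4089 and under 4096 in each of the 12 libraries of the first set, but reached 191131 in the second, where 261 genes passed 4096 in some library. The number 4096 is that of distinct sequences of 6 bases, and the study's methods describe the CEL-Seq2 protocol and counting of uniquely mapped reads by HTSeq. Whether reads that share a molecular identifier were merged is not given in the sources used here. If they were, counts near that ceiling in the first set would be compressed relative to lower ones, which was not tested.

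The eosinophil label was checked against 10 marker genes, whose summed level ran from 2679 CPM in library IFN-γ + *E. coli* 2 to 5589 CPM in unstimulated library e, led by *Alox15* or *Ccr3*. Their sum averaged 4607 CPM ± 509 in unstimulated cells a to c and 3582 ± 158, 3842 ± 308 and 2793 ± 136 after *E. coli*, IFN-γ and both, and 5341 ± 229 in unstimulated cells d to f and 5213 ± 103 with IL-4 (SD, n = 3 each). In edgeR 2, 4 and 4 of the 6 tested in the first set were lower with *E. coli*, IFN-γ and both, and 1 was higher with *E. coli* and 1 with both, while with IL-4 1 of 10 was lower and 4 were higher. *Siglecf* averaged 314 to 1089 CPM over the groups, while the granule genes *Epx* and *Prg3* averaged only 0.166 to 3.04 and 0.244 to 2.15 CPM. None of the 8 macrophage markers was at 0 in any library, with *Csf1r* most abundant in the first set and complement C1q genes in the second. Their summed level averaged 977 CPM ± 120 in unstimulated cells a to c, 772 ± 174 after *E. coli*, 1137 ± 75.4 after IFN-γ and 981 ± 87.3 after both agents (SD, n = 3 each). It averaged 2277 CPM ± 320 in unstimulated cells d to f and 1925 ± 134 with IL-4. The 8 neutrophil markers, led by *S100a8* except in libraries IL-4 2 and IL-4 3, summed to 16.2 CPM ± 4.82 in unstimulated cells a to c and to 82.5 ± 43.4, 61.9 ± 4.61 and 65.2 ± 22.4 with *E. coli*, IFN-γ and both. They summed to 17.9 ± 1.03 CPM in unstimulated cells d to f and 19.2 ± 5.25 with IL-4, and up to 5 of them (*Mpo*, *Elane*, *Camp*, *Ngp* and *Ltf*) were at 0 in a library. Only 2 of the 8 were tested in the first set, and with *E. coli* the fitted fold was 8.33 for *S100a8* but 0.762 for *Ly6g*. With IFN-γ these folds were 4.6 and 4.8, and with both agents 6.5 and 3.1. Markers of B cells (6 genes, led by *Igkc* or *Ighm*) summed to 284 CPM ± 71.4 in unstimulated cells a to c and to 85.5 ± 33.3, 111 ± 40.0 and 179 ± 23.9 after *E. coli*, IFN-γ and both, and to 71.0 ± 29.6 in unstimulated cells d to f and 127 ± 15.8 with IL-4. Markers of mast cells (6) summed to 9.42 CPM ± 1.56, 17.7 ± 15.4, 18.4 ± 9.29 and 52.1 ± 17.6 in the same order of the first set, and to 7.26 ± 0.978 and 15.7 ± 6.60 in the second. The part of these differences in the levels below was not tested. Markers of dendritic cells (7) lay between 8.63 and 39.6 CPM, and of T cells (6, of which 4 never passed 3 counts) between 1.31 and 9.92. The *E. coli* 3 library stood apart from its group, with 972 CPM of macrophage, 132 CPM of neutrophil and 35.4 CPM of mast cell markers against at most 689, 65.1 and 10.4 CPM in the other *E. coli* libraries. In bulk RNA, a change in the number of cells of a type and a change in RNA per cell cannot be told apart.

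NAD is the electron carrier of catabolism and also a substrate that is broken down by signalling enzymes, so cells rebuild it continuously. NAMPT salvages nicotinamide, NAPRT uses nicotinic acid, NMNAT enzymes act in both routes, and the ectoenzymes CD38 and BST1 (CD157) split NAD into nicotinamide and ADP-ribose products. IDO1, KMO and KYNU act along the kynurenine pathway, which can lead from tryptophan to new NAD, and ACOD1 (IRG1) diverts cis-aconitate from the citrate cycle to itaconate, a product well known from activated macrophages.

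The number of these genes past an adjusted p of 0.05 in edgeR's quasi-likelihood test was read only as a description against unstimulated cells. With *E. coli*, 1 of the 6 tested was higher (*Bst1*), where 13.5% of all genes tested were, and 1 was lower (*Naprt*), where 16.7% were. With IFN-γ, 5 were higher (*Nampt*, *Acod1*, *Bst1*, *Cd38* and *Ido1*), beside 15.6% of all genes, and 1 was lower (*Naprt*), beside 16% of all genes. With IFN-γ + *E. coli*, the same 5 were higher and the same 1 lower, beside 23.9% and 25.2% of all genes. With IL-4, 1 of 8 was higher (*Ido1*) and 2 were lower (*Cd38* and *Bst1*), beside 5.97% and 4.35% of all genes. *Ido1* had at most 5 counts in any library of unstimulated cells a to c and at most 3 in d to f. It passed the filter on low counts only through the groups given IFN-γ or IL-4, where it is high. Its calls with IFN-γ, with both agents and with IL-4 thus come from a gene that the filter kept for those groups, and are no support. Not all of the calls listed here held when a library was left out. *Naprt* with *E. coli* dropped out without any single library of unstimulated cells a to c, of *E. coli* or of IFN-γ, with a log2 change of −0.82 to −0.66 over the 12 fits that each left out 1 library. *Cd38* with IFN-γ dropped out without unstimulated b or c or without IFN-γ 1 or 3 (log2 0.57 to 0.92 over 12 fits), and *Cd38* with IL-4 without unstimulated f or without IL-4 1 or 2 (log2 −1.08 to −0.70 over 6 fits).

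**Figure D1:**
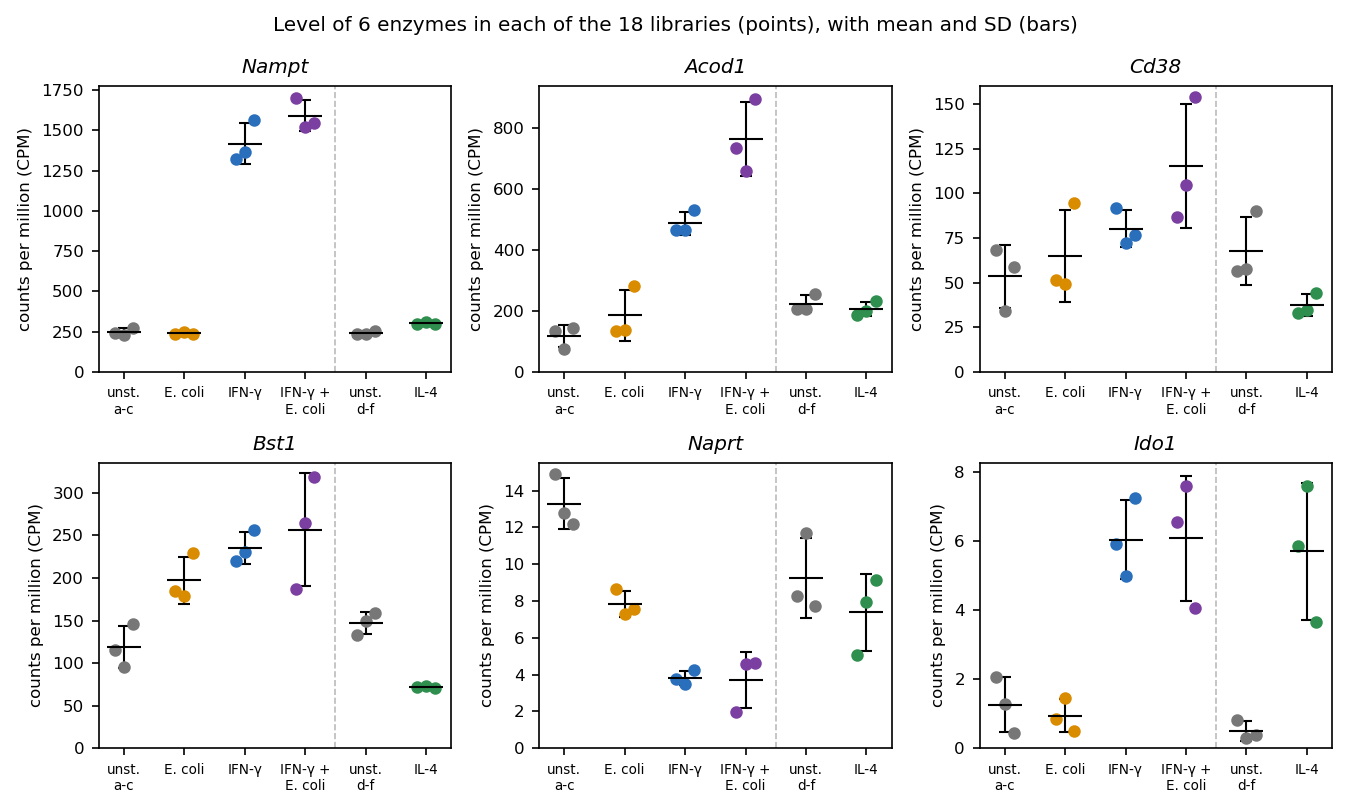
Level of 6 genes in CPM (vertical axis) in each of the 18 libraries (points) by group (horizontal axis), with the group mean and SD as bars and a dashed line between the sets. *Nampt* stood at 1322 CPM or more in the 6 libraries given IFN-γ and at 311 CPM or less in all others.

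*Nampt*, the rate-limiting enzyme of nicotinamide salvage, had the simplest pattern. It stood at 243, 231 and 272 CPM in unstimulated libraries a, b and c, and at 236, 247 and 236 CPM in *E. coli* 1, 2 and 3. With IFN-γ it reached 1322, 1365 and 1564 CPM, and with both agents 1701, 1523 and 1548 CPM. The 6 libraries given IFN-γ lay apart from the other 6 of that set, whereas *E. coli* and unstimulated libraries overlapped. The means were 248 CPM ± 21.2, 239 ± 6.27, 1417 ± 129 and 1591 ± 96.4 (SD, n = 3 each), and the fitted fold changes against unstimulated cells were 0.976, 6.43 and 7.61. In the second set *Nampt* stood at 235, 238 and 256 CPM in unstimulated cells and at 299, 311 and 298 CPM with IL-4, a fitted fold of 1.19 (log2 0.26, SE 0.11). The IL-4 libraries lay just above their controls.

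The size of the *Nampt* difference in the first set depended on how the count ceiling was treated. Its counts in the 6 libraries given IFN-γ were 2458 to 3002, or 60% to 73.3% of 4096, against at most 674 counts (16.5%) elsewhere in that set. A correction for such a ceiling, chosen after seeing the data, gave means of 206, 193, 1731 and 2035 CPM for unstimulated, *E. coli*, IFN-γ and IFN-γ + *E. coli* cells. The log2 fold change with IFN-γ was then 3.27 in place of 2.69, and with both agents 3.58 in place of 2.93.

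*Naprt*, which starts NAD synthesis from nicotinic acid, went the other way at low counts. It stood at 14.9, 12.8 and 12.2 CPM in unstimulated libraries a to c, at 8.63, 7.32 and 7.58 CPM with *E. coli*, at 3.76, 3.49 and 4.23 CPM with IFN-γ and at 1.97, 4.57 and 4.65 CPM with both agents. No stimulated library of that set reached the lowest unstimulated one. Summed over 3 libraries, 83 counts in unstimulated cells faced 55, 21 and 20 counts, ratios, scaled to library totals, of 0.584 (95% interval 0.407 to 0.830), 0.284 (0.167 to 0.463) and 0.286 (0.166 to 0.471). Unstimulated d to f, at 8.28, 11.7 and 7.74 CPM, overlapped the IL-4 libraries at 5.08, 7.95 and 9.14 CPM, although the ratio of summed counts, 0.762, had an interval of 0.588 to 0.983 from counting error. The gene shares 277 exon bases on the same strand with *Eef1d*, an elongation factor gene, so its counts are uncertain.

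The adenylyl transferases that finish NAD were thinly covered. *Nmnat1*, the nuclear enzyme, averaged 5.64 CPM in unstimulated cells a to c and 4.06, 1.99 and 3.66 CPM with *E. coli*, IFN-γ and both, and it was not tested there. Its lowest value, with IFN-γ, rested on 11 counts against 37, a ratio of 0.334 (95% interval 0.154 to 0.668), and a stretch of 200 bases that is 95.5% identical in *Zmynd8* adds uncertainty. With IL-4 it averaged 5.20 CPM against 3.44, a ratio of 1.45 (1.00 to 2.1). *Nmnat3*, the mitochondrial enzyme, averaged 2.1, 2.00, 1.62 and 0.995 CPM across the first set and 2.55 and 3.16 CPM in the second. The interval of every *Nmnat3* ratio held 1, from 0.457 (0.128 to 1.37) with both agents to 1.33 (0.838 to 2.14) with IL-4, so no difference was detectable at this depth.

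*Bst1*, an ectoenzyme held on the surface by a lipid anchor, stood higher with each stimulus of the first set and lower with IL-4. It stood at 115, 96.0 and 146 CPM in unstimulated libraries a to c, at 184, 179 and 229 CPM with *E. coli*, at 220, 230 and 256 CPM with IFN-γ, and at 187, 264 and 319 CPM with both agents. All 9 stimulated libraries lay above the unstimulated ones, while the stimulated groups overlapped each other. The fitted folds were 1.68, 2.23 and 2.57, and the last, log2 1.36, was 1.56 on that scale without IFN-γ + *E. coli* 1 and 1.17 without IFN-γ + *E. coli* 3. Among the other 6 libraries *Bst1* stood at 134, 150 and 159 CPM without and at 71.9, 73.3 and 70.3 CPM with IL-4, a fitted fold of 0.466 (log2 −1.10, SE 0.13), and the groups lay far apart. A stretch of 98 exon bases overlaps *Fbxl5* on the other strand, and whether counting used strand is not given in the sources used here.

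*Cd38*, the neighbouring and related ectoenzyme, had wider spread. It stood at 68.2, 33.9 and 58.8 CPM in unstimulated libraries a to c, at 51.3, 49.0 and 94.4 CPM with *E. coli*, at 92.0, 72.3 and 76.7 CPM with IFN-γ, and at 86.6, 105 and 154 CPM with both agents. *E. coli* libraries overlapped the unstimulated ones, and *E. coli* 3 was higher than each of the IFN-γ libraries. The fitted log2 changes were 0.26 (SE 0.26), 0.73 (SE 0.26) and 1.34 (SE 0.26), and the first became −0.12 without *E. coli* 3 and the last 1.07 without IFN-γ + *E. coli* 3. In unstimulated d to f it stood at 56.6, 57.4 and 89.9 CPM, and with IL-4 at 33.0, 34.9 and 44.4 CPM, a log2 change of −0.92 (SE 0.20) with no overlap.

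*Ido1*, which opens the tryptophan ring, was scarce and yet separated the groups. Its counts were 5, 2 and 1 in unstimulated libraries a to c, 2, 4 and 1 with *E. coli*, 11, 10 and 12 with IFN-γ, and 10, 15 and 7 with both agents. They were 3, 2 and 2 in unstimulated d to f and 30, 45 and 14 with IL-4. The highest library without IFN-γ or IL-4 stood at 2.07 CPM and the lowest with either at 3.66 CPM. Ratios of summed counts, scaled to library totals, were 0.771 (95% interval 0.238 to 2.43) with *E. coli*, 4.63 (2.1 to 11.6) with IFN-γ, 4.75 (2.14 to 11.9) with both agents and 13.2 (6.14 to 33.7) with IL-4. The 8 counts of unstimulated cells leaned on library a, without which the fitted log2 change was 2.96 in place of 2.34 with IFN-γ and 3.06 in place of 2.44 with both agents. *Ido1* thus stood several times higher with IFN-γ and also with IL-4. The steps that follow were barely read: *Kynu*, kynureninase, had at most 3 counts in any library and 0 in 8 of 18, and *Kmo*, kynurenine 3-monooxygenase, at most 1 count and 0 in 9 of 18. No fold is given for either.

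*Acod1*, the itaconate-forming enzyme, stood at 134, 76.2 and 144 CPM in unstimulated libraries a to c and at 135, 138 and 281 CPM with *E. coli*. With IFN-γ it stood at 464, 466 and 529 CPM, and with both agents at 732, 659 and 895 CPM. The IFN-γ libraries lay above all *E. coli* and unstimulated ones, and those given both agents above all IFN-γ ones. The means were 118 CPM ± 36.5, 185 ± 83.5, 486 ± 37.3 and 762 ± 121 (SD, n = 3 each), with fitted folds of 1.58, 4.62 and 7.66. The *E. coli* value leaned on *E. coli* 3, since the log2 change of 0.66 (SE 0.25) was 0.21 without it. Unstimulated d to f, at 207, 207 and 254 CPM, overlapped the IL-4 libraries at 187, 198 and 231 CPM, a log2 change of −0.18 (SE 0.13).

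**Figure D2:**
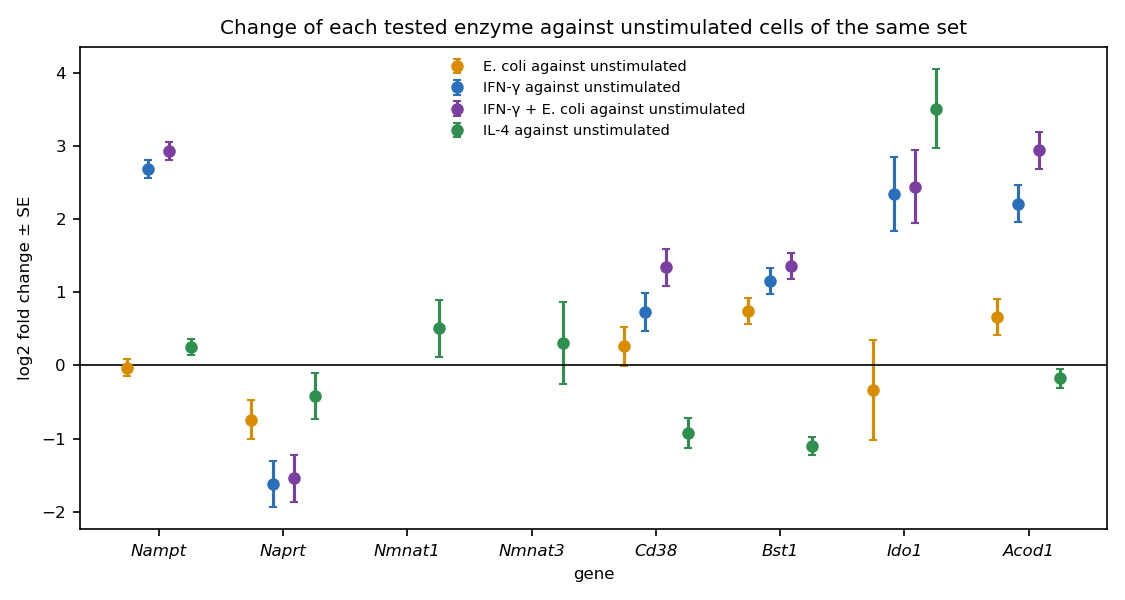
Fitted log2 fold change (vertical axis, bars SE) of each tested gene (horizontal axis) against unstimulated cells of its own set, by stimulus. *Bst1* and *Cd38* lay above 0 with IFN-γ (log2 1.16 and 0.73) and below 0 with IL-4 (log2 −1.10 and −0.92).

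The stimulated groups were also compared with each other, on the same libraries that chose the genes, so the tests are no independent support. Adding IFN-γ to *E. coli* moved 5 of the 6 tested genes, all upward, where 32.8% of all genes moved. *Ido1*, with at most 5 counts in any unstimulated or *E. coli* library, passed the filter on low counts only through the groups given IFN-γ, where it is high. Its difference from *E. coli* is therefore given without a test, although with no filter on low counts the same 5 genes were called. *Nampt* differed by log2 2.96 (SE 0.12; quasi-likelihood test of edgeR, Benjamini-Hochberg adjusted p = 2.54e-12), higher in 3 of 3 libraries. With the ceiling correction this difference was 3.62. *Acod1* differed by log2 2.28 (edgeR adjusted p = 6.35e-07), also with 3 of 3 libraries higher, and the log2 value of *Ido1* was 2.78. *Cd38* differed by log2 1.08 (edgeR adjusted p = 0.00275) and *Bst1* by log2 0.61 (edgeR adjusted p = 0.0097), with overlapping groups. The *Bst1* call was lost without *E. coli* 2 (edgeR, log2 0.52, adjusted p = 0.0572) and without IFN-γ + *E. coli* 3 (log2 0.41, adjusted p = 0.0621). *Naprt* missed the threshold at log2 −0.80 (edgeR adjusted p = 0.0825), although lower in 3 of 3 libraries.

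IFN-γ set directly against *E. coli* moved 3 of the 6, *Nampt*, *Ido1* and *Acod1*, where 25.5% of all genes moved. *Ido1* (log2 2.68) entered this fit through the filter as described above, so its call is no support, although it was also called with no filter. The edgeR log2 differences of *Nampt* and *Acod1* were 2.72 (adjusted p = 4.62e-12) and 1.55 (adjusted p = 6.49e-05), each higher in 3 of 3 IFN-γ libraries. With the ceiling correction that of *Nampt* was 3.30. *Bst1* and *Cd38* differed by log2 0.41 and 0.47 with edgeR adjusted p = 0.0906 and 0.196 and overlapping groups, and *Naprt* by log2 −0.88 (edgeR adjusted p = 0.064), lower in 3 of 3 libraries. Without *E. coli* 3 both were called, *Cd38* at log2 0.85 (edgeR adjusted p = 0.0101) and *Bst1* at log2 0.55 (edgeR adjusted p = 0.0309), and *Bst1* was also called without IFN-γ + *E. coli* 1 (log2 0.42, adjusted p = 0.0463) or 3 (log2 0.42, adjusted p = 0.0366).

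Adding *E. coli* to IFN-γ moved 1 of the 6, *Acod1*, where 12.2% of all genes moved. Its log2 difference was 0.73 (SE 0.23, edgeR adjusted p = 0.0455), higher in 3 of 3 libraries. That call was not firm: DESeq2 gave an adjusted p of 0.185 for log2 0.74. It was also lost without unstimulated a or c and without any single library of either compared group, where edgeR's adjusted p ran up to 0.152 and the log2 difference from 0.57 to 0.84 over all 12 fits. *Nampt*, *Cd38*, *Bst1*, *Ido1* and *Naprt* differed by log2 0.24, 0.61, 0.21, 0.10 and 0.08, none past the threshold. The interaction, the response to both agents beyond the sum of the single responses on the log2 scale, draws on the unstimulated libraries and so on the values that chose the genes, and it is given as a description. It lay past the threshold for 0 of the 6 in edgeR and 0 in DESeq2, where 4.62% of all genes passed in edgeR, and at an unadjusted p of 0.05 in edgeR for 1, *Bst1*, with log2 −0.54 (SE 0.25). Without IFN-γ + *E. coli* 3 the *Bst1* value was −0.77 and past the threshold. For *Acod1* the interaction was log2 0.07 (SE 0.34) and for *Nampt* 0.28 (SE 0.16). Over 12 fits that each left out 1 library, it ran from −0.14 to 0.52 for *Acod1* and from 0.20 to 0.36 for *Nampt*.

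The response to IL-4 and the response to IFN-γ + *E. coli*, each against its own unstimulated cells, were set side by side in a fit over all 18 libraries. Their difference is built from the same comparisons with unstimulated cells that chose the genes, so it is given as a description and no test is drawn from it. Of the 7 genes in the fit, 4 lay past an adjusted p of 0.05 in edgeR, where 39.2% of all genes did, and all 4 were lower with IL-4. The log2 differences were −3.18 (SE 0.33) for *Acod1*, −2.73 (SE 0.15) for *Nampt*, −2.52 (SE 0.24) for *Bst1* and −2.33 (SE 0.36) for *Cd38*. For each of them the 3 libraries with both agents lay above their controls, and for *Bst1* and *Cd38* the 3 IL-4 libraries lay below theirs. *Ido1*, *Naprt* and *Nmnat1* differed by log2 0.97, 1.07 and 0.85, short of the threshold, and *Naprt* was past it without unstimulated e (log2 1.33) or IL-4 1 (log2 1.28). File layout and stimulus cannot be told apart beyond each set's own controls.

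With all 6 unstimulated libraries as 1 group, which mixes the layouts, many of the changes against unstimulated cells had another size. In the order *E. coli*, IFN-γ, both agents and IL-4, the log2 change of *Acod1* was then −0.21, 1.34, 2.09 and 0.39 in place of 0.66, 2.21, 2.94 and −0.18. That of *Cd38* was −0.19, 0.27, 0.90 and −0.53 in place of 0.26, 0.73, 1.34 and −0.92, and that of *Bst1* 0.28, 0.70, 0.93 and −0.72 in place of 0.75, 1.16, 1.36 and −1.10. For *Nampt* it was −0.30, 2.44, 2.71 and 0.51 in place of −0.04, 2.69, 2.93 and 0.26. *Naprt* with *E. coli* was at −0.74 in both fits. Past the threshold no more were *Bst1* with *E. coli*, with IFN-γ alone and with IL-4, *Cd38* with IFN-γ alone and with IL-4, and *Naprt* with *E. coli*, while *Nampt* with IL-4 was newly past it.

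Within groups, *Cd38* and *Acod1* varied together with markers of several other cell types. After subtracting each group's mean log2 CPM, *Cd38* followed the summed macrophage markers across the 12 libraries of the first set with a Pearson r of 0.929, and with 0.924 over the 10 that remain without *E. coli* 2 and 3, the farthest in that sum. For *Acod1* r was 0.878, and 0.772 over those 10, for *Bst1* 0.657 and 0.644, and for *Nampt* −0.155 and −0.080. *Nampt* went against B cell (r = −0.665) and mast cell markers (−0.522), at −0.685 and −0.556 without *E. coli* 3 and IFN-γ 1. *Bst1* went most closely with neutrophil markers, a sum led by *S100a8* in this set, at r = 0.861 over 12 libraries. With the same neutrophil sum r was 0.810 for *Cd38* and 0.806 for *Acod1*, and 0.625 and 0.631 without *E. coli* 3 and IFN-γ + *E. coli* 3. With mast cell markers it was 0.716 for *Cd38*, and 0.558 without *E. coli* 3 and IFN-γ 1. In the 6 libraries of the second set, r with the macrophage sum was 0.936 for *Cd38* and 0.876 for *Acod1*, but 0.284 and −0.347 over the 4 that remain without unstimulated f and IL-4 3, so for these genes it rests on those libraries. For *Bst1* it was 0.689, and 0.808 over the same 4. There *Cd38* also went with B cell (r = 0.941), dendritic cell (0.892) and neutrophil markers (0.674), and *Acod1* with dendritic cell (0.919), B cell (0.862) and neutrophil markers (0.807). Without the 2 libraries farthest in each marker sum these were 0.885, 0.897 and 0.850 for *Cd38* and 0.861, 0.792 and 0.855 for *Acod1*. *Nampt* reached r = 0.621 with macrophage, 0.714 with B cell and 0.718 with dendritic cell markers in that set, and 0.228, −0.031 and 0.549 without such libraries. Only some pairs of gene and marker sum are given here, and the eosinophil sum is not among them. The points share library totals and group means, and the values describe these libraries only. As group means, the macrophage sum was 977, 772, 1137 and 981 CPM and *Cd38* 53.6, 64.9, 80.3 and 115 CPM in unstimulated cells a to c and after *E. coli*, IFN-γ and both, and they were 2277 and 68.0 CPM in unstimulated d to f and 1925 and 37.4 CPM with IL-4. The part of other cell types in these levels was not tested.

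**Figure D3:**
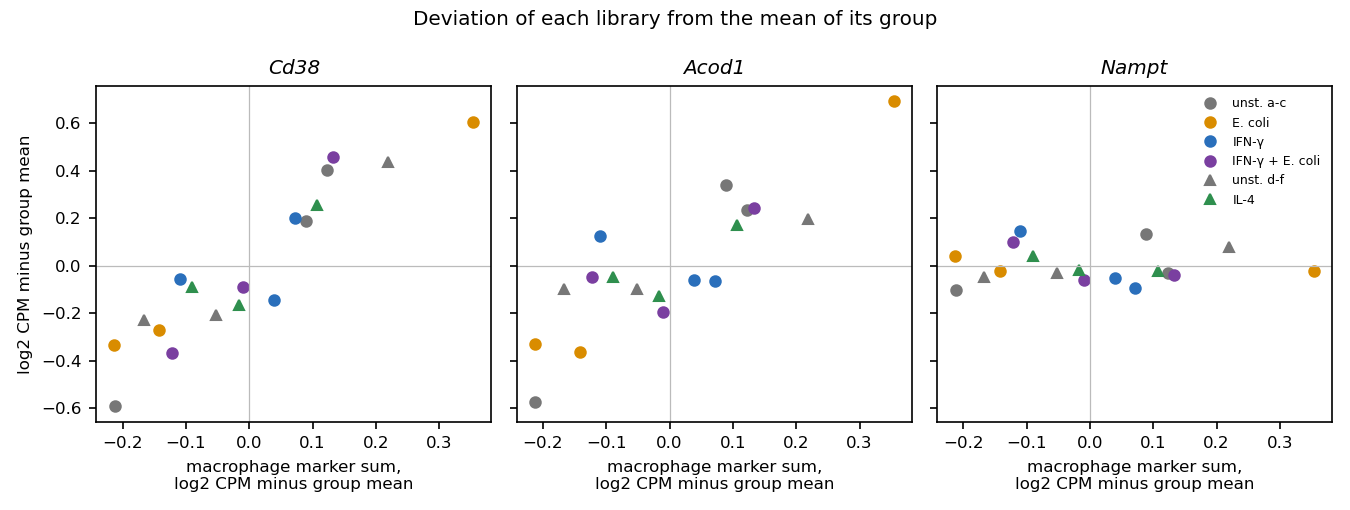
Deviation of *Cd38*, *Acod1* and *Nampt* (vertical axis, log2 CPM minus the mean of the library's group) against that of the summed macrophage markers (horizontal axis, same scale), 1 point a library, circles for the first set and triangles for the second. Over the 12 libraries of the first set r was 0.929 for *Cd38* and −0.155 for *Nampt*, and over the 6 of the second 0.936 and 0.621.

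Around the 10 genes, 94 others of the same pathways were listed, and 66 were tested in the first set and 64 in the second. These lists too were drawn up with earlier results of these data known, and many genes named below are those with the smallest adjusted p. Counts and p-values among them are therefore a description and no independent support. With *E. coli* 11 rose and 17 fell, where 13.5% and 16.7% of all genes tested did, and with IFN-γ 16 rose and 11 fell, beside 15.6% and 16% of all genes. With both agents 20 rose and 16 fell, beside 23.9% and 25.2%, and with IL-4 7 rose and 1 fell, beside 5.97% and 4.35%. The counts of the separate lists below stand beside these same shares of all genes tested, and several lie near them. Their median log2 changes were −0.12, 0.09, 0.08 and −0.03, beside −0.024, −0.032, −0.040 and 0.001 over all genes tested. The *E. coli* total of 28 dropped to 17 without unstimulated a, and the IL-4 total of 8 to 3, 4 and 4 without IL-4 1, 2 and 3.

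Among other genes of NAD synthesis, 7 of 13 were tested, and 2 rose and 1 fell with *E. coli*, 5 and 1 with IFN-γ, and 4 and 1 with both agents (median log2 0.25, 0.55 and 0.97). With IL-4, 0 of the 7 passed in edgeR and 0 in DESeq2, and 3 had an unadjusted p under 0.05 in edgeR (median log2 −0.05). *Nmrk1*, a kinase that makes the product of NAMPT from nicotinamide riboside, averaged 21.2 CPM in unstimulated cells a to c and 52.7 and 64.6 CPM with IFN-γ and both agents. Its log2 changes there were 1.48 and 1.85 (edgeR adjusted p = 0.000101 and 2.98e-06), with 3 of 3 libraries higher in each. With *E. coli* its log2 change of 0.67 (edgeR adjusted p = 0.0446) was lost without unstimulated a, b or c, *E. coli* 2 or IFN-γ + *E. coli* 2 (adjusted p up to 0.309), and with all 6 unstimulated libraries as 1 group (log2 0.09, adjusted p = 0.85). *Nadsyn1*, which closes the routes from nicotinic acid and tryptophan, fell by 1.22 on the log2 scale with both agents (edgeR adjusted p = 0.00447), lower in 3 of 3 libraries, and averaged 13.3 CPM in unstimulated cells, 8.66 after *E. coli*, 6.65 after IFN-γ and 4.70 after both. With all 6 unstimulated libraries as 1 group that call was lost (log2 −0.61, edgeR adjusted p = 0.26). With IFN-γ alone its log2 change of −0.81 (edgeR adjusted p = 0.0463) was lost in that fit, under DESeq2 and in most fits that left out 1 library. *Qprt*, *Nmnat2* and *Afmid* had at most 9 counts in any library and were not tested.

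Of 27 genes of NAD use, 20 were tested: 1 rose and 6 fell with *E. coli*, 7 rose and 2 fell with IFN-γ, 8 and 4 with both agents, and 5 rose with IL-4 (median log2 −0.23, 0.19, 0.28 and 0.11). *Parp10*, a mono-ADP-ribosyl transferase, averaged 115 CPM in unstimulated cells a to c, 451 with IFN-γ and 564 with both. Its log2 changes were 2.15 and 2.55 (edgeR adjusted p = 6.21e-10 and 2.44e-11), with 3 of 3 libraries higher. *Parp14*, of the same family, fell by 0.69 on the log2 scale with *E. coli* (edgeR adjusted p = 0.000108) and rose by 0.73 with IFN-γ (edgeR adjusted p = 4.57e-05) and by 1.20 with IL-4 (edgeR adjusted p = 0.00442), 3 of 3 libraries each time. The *E. coli* call was lost with all 6 unstimulated libraries as 1 group (log2 −0.51, edgeR adjusted p = 0.0575). *Parp11* fell by 0.89 with *E. coli* (edgeR adjusted p = 6.29e-05) and was higher by 0.77 with IL-4 (edgeR adjusted p = 0.00762), 3 of 3 libraries each, though the IL-4 call was lost without IL-4 1 or 3 (adjusted p = 0.0518 and 0.0502). *Tiparp*, also a transferase of ADP-ribose, rose by 1.60 with *E. coli* (edgeR adjusted p = 2.33e-07), by 0.69 with IFN-γ (edgeR adjusted p = 0.00224) and by 1.39 with both agents (edgeR adjusted p = 5.19e-07), and the sirtuin *Sirt7* fell by 0.80 with both agents (edgeR adjusted p = 1.79e-05), 3 of 3 libraries each.

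Of 23 other genes of tryptophan breakdown, use and sensing, 13 were tested in the first set and 11 in the second: 6 rose and 4 fell with *E. coli*, 3 and 3 with IFN-γ, 8 and 3 with both agents, and 1 and 1 with IL-4 (median log2 0.47, 0.10, 0.61 and 0.11). *Wars*, the tryptophanyl-tRNA synthetase that loads tryptophan for protein synthesis, averaged 61.3 CPM in unstimulated cells a to c, 44.9 after *E. coli*, 535 after IFN-γ and 603 after both. Its log2 changes with IFN-γ and both were 3.30 and 3.55 (edgeR adjusted p = 5.41e-12 and 6.38e-13), 3 of 3 libraries higher in each. With *E. coli* its log2 change of −0.43 (edgeR adjusted p = 0.0386, 3 of 3 libraries lower) was lost without unstimulated b or c, *E. coli* 1 or 2, or any IFN-γ library (adjusted p up to 0.164), and with all 6 unstimulated libraries as 1 group (log2 −0.39, adjusted p = 0.0811). *Cyp1b1*, a cytochrome P450, averaged 9.81 CPM in unstimulated cells a to c and 63.7 after *E. coli* (log2 2.69, edgeR adjusted p = 6.03e-08), and *Ahrr*, a repressor of the aryl hydrocarbon receptor, 11.6 and 40.1 CPM (log2 1.78, edgeR adjusted p = 5.26e-07), 3 of 3 libraries higher. *Cyp1b1* also rose by 2.33 with both agents (edgeR adjusted p = 2.4e-07) and by 1.97 with IL-4 (edgeR adjusted p = 0.00159), again 3 of 3.

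*Haao*, which follows kynureninase on the way to NAD, had 64 counts over unstimulated libraries a to c and 14, 8 and 5 with *E. coli*, IFN-γ and both. The ratios, scaled to library totals, were 0.193 (95% interval 0.0998 to 0.347), 0.140 (0.0581 to 0.293) and 0.0928 (0.0291 to 0.228), against 1.46 (1.02 to 2.1) with IL-4. These intervals cover counting error only, and *Haao* was not called with IL-4. There edgeR's adjusted p ran from 0.312 to 0.729 over 6 fits that each left out 1 library. *Ido2*, which lies 7.8 kb from *Ido1* on the same strand, was not tested: it had 1 count over unstimulated a to c, 2 after *E. coli*, 3 after IFN-γ and 15 after both agents, and it had 4 over unstimulated d to f and 21 with IL-4, a ratio of 5.44 (1.84 to 21.8). *Got2*, an aminotransferase, fell by 1.14 on the log2 scale with both agents (edgeR adjusted p = 4.44e-05), and *Slc3a2*, the heavy chain of an amino acid carrier, by 0.52 with IL-4 (edgeR adjusted p = 0.0174), 3 of 3 libraries each. The *Slc3a2* call was lost without any single IL-4 library (adjusted p up to 0.101), and with all 6 unstimulated libraries as 1 group its log2 value was 0.10. *Il4i1*, an amino acid oxidase, averaged 3.59 to 7.20 CPM in the first set with overlapping groups and no call there, and was at or under the floor in the second.

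Of 31 genes of the citrate cycle and of itaconate breakdown and transport, 26 were tested: 2 rose and 6 fell with *E. coli*, 1 and 5 with IFN-γ, 8 fell with both agents, and 1 rose with IL-4 (median log2 −0.04, −0.18, −0.24 and −0.10). *Mdh1*, cytosolic malate dehydrogenase, fell from 159 to 59.3 CPM with *E. coli* (log2 −1.41, edgeR adjusted p = 4.61e-07), 3 of 3 libraries lower. *Suclg1*, a subunit of succinyl-CoA ligase, fell by 0.61 on the log2 scale with IFN-γ (edgeR adjusted p = 0.00234) and by 0.99 with both agents (edgeR adjusted p = 1.61e-05), 3 of 3 libraries each. *Aco1*, cytosolic aconitase, had 55 counts over unstimulated a to c and 50, 11 and 20 with *E. coli*, IFN-γ and both, ratios of 0.801 (95% interval 0.535 to 1.20), 0.224 (0.106 to 0.433) and 0.432 (0.245 to 0.732), against 1.65 (1.18 to 2.33) with IL-4. These intervals cover counting error only. In edgeR *Aco1* was called lower with IFN-γ (adjusted p = 0.00229) but was not called with both agents.

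The 6 genes tested in the first set were set against every other gene tested there by the Pearson r of log2 CPM over its 12 libraries, as a description in which points share groups. *Nampt* was most like *Tgm2* (r = 0.996), *Mxi1* (0.995) and *Igtp* (0.995), and *Acod1* like *Clic4* (0.996), *Ndrg1* (0.988) and *Slc31a1* (0.983). *Cd38* was most like *Fcna* (0.969), *App* (0.954) and *Cstb* (0.947), *Bst1* like *Nol3* (0.963), *Nab2* (0.958) and *Wfdc17* (0.958). *Ido1* was most like *Nxn* (0.956), *Idnk* (0.954) and *Cenpj* (0.954), and *Naprt* like *Borcs5* (0.976), *Lage3* (0.962) and *Fancl* (0.958). Among themselves, *Nampt* reached r = 0.944 with *Ido1* and 0.937 with *Acod1*, *Acod1* 0.916 with *Cd38*, and *Naprt* was negative with all 5 others, from −0.853 with *Nampt* to −0.616 with *Cd38*.

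In the GRCm38 build, *Bst1* (chr5:43818885-43843986) and *Cd38* (chr5:43868553-43912375) lie on the same strand, 24.6 kb apart. *Nampt* lies at chr12:32819545-32853349 (plus strand), *Acod1* at chr14:103046977-103056573 (plus strand), *Ido1* at chr8:24584136-24597009 and *Naprt* at chr15:75890956-75894481 (both minus strand). The RefSeq promoter table (GRCm38.p6, 250 bases before to 50 after a gene's start) matched 6 of the 10 genes, *Nampt*, *Nmnat1*, *Nmnat3*, *Cd38*, *Kmo* and *Acod1*. Its starts are not always those of the gene models used for the positions: the windows of *Nampt*, *Nmnat3*, *Cd38* and *Kmo* begin inside the gene as modelled, downstream of its first base. The promoters of 3 that stood higher with IFN-γ are shown to set their make-up side by side: chr12:32820085-32820384, chr14:103046762-103047061 and chr5:43868559-43868858, all on the plus strand and written 5′ to 3′. Both strands were searched for a GC box, spelled GGGCGG and read on the other strand as its reverse complement. A further search was for a TATA box, spelled TATAAA on the strand that matched, and for an NF-κB type motif, spelled GGGANNNNCC. Capitals mark the matches.
Nampt: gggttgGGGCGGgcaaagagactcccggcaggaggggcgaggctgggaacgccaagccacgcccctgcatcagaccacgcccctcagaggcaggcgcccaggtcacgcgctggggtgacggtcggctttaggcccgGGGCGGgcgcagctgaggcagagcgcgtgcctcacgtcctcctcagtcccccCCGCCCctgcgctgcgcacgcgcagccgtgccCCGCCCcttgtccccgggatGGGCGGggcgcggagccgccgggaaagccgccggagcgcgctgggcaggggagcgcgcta
Acod1: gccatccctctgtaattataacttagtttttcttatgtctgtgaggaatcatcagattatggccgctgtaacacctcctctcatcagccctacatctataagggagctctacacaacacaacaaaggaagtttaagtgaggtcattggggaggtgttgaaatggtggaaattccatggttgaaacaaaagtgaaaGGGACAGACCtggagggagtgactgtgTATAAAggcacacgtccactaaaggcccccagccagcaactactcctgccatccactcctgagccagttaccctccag
Cd38: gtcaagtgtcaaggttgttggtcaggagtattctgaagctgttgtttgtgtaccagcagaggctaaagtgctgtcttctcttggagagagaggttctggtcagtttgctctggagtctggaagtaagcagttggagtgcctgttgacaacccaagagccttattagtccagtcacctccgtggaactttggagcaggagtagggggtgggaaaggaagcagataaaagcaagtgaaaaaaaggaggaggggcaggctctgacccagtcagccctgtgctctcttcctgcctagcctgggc
*Nampt* had 5 GC boxes in sequence of 76.3% GC. Of the genes not shown, *Nmnat3* had 4 GC boxes and *Nmnat1* 1 in each of 2 windows. *Acod1* had 1 TATA box and 1 NF-κB type match at 47% GC. *Cd38*, at 51.7% GC, held none of them, nor did *Kmo*. Of 32851 promoters in the table, 35.7% held a GC box, 13.6% a TATA box and 20.7% the NF-κB type motif on some strand. The interferon-linked motifs TTCNNNGAA, TTCNNNNGAA and GAAANNGAAA, held by 8.3%, 6.95% and 3.44% of promoters, had no match in the promoters of these 6 genes, which says only that the letters are not in these windows. The GC box and the TATA box were added after the sequences had been seen.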

How the data were processed

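RNA was measured in 18 libraries. Whole-number counts per gene were deposited by the authors. Per the submitters' notes reads were handled with fastp 0.20.1, STAR 2.7.2a, TopHat2 2.1.0 and HTSeq 0.6.1 on GRCm38, and which tool and which library protocol (the labels name CEL-Seq and another RNA-seq run) made which set is not given in the sources used here. In the first set 21.1% to 39.4% of counts lay in lines naming no gene and were left out, and 0% in the second. CPM were computed from the remaining totals. Each set was fitted with edgeR 4.0.16 in R 4.3.3 (TMM scaling, filterByExpr, quasi-likelihood test, Benjamini-Hochberg adjustment over all genes tested), which tested 9883 genes in the first set, 10556 in the second and 10671 over all 18 libraries. The fits were tested on simulated data.

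Alternatives were DESeq2 1.42.0, its size factors, other filters on low counts, pairs of groups alone, all 6 unstimulated libraries as 1 group, a replicate block, each library left out in turn and, chosen after seeing the data, counts corrected for the ceiling. The 10 genes and the pathway and marker lists were chosen with earlier results of these data known. From the pathway lists the text names the 3 genes with the smallest adjusted p in each direction against unstimulated cells and those that join steps of the 10 enzymes (1 of them is not reported here), and from all tested genes the 3 most like each of the 6 tested in the first set. Replicate pairs differed by more than counting noise (lowest chi-square per gene 1.64). Unstimulated e stood apart from its group, at 23.7 against d and 22.0 against f, where d against f was at 7.86.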

Additional observations from a re-analysis of the deposited data

Results flagged for a closer look

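The responses to IL-4 and to IFN-γ + *E. coli*, each against unstimulated cells of its own set, lay apart past an adjusted p of 0.05 in edgeR over 18 libraries for 4 of the 7 genes in the fit, where 39.2% of all genes did. The difference is built from the same comparisons with unstimulated cells that chose the genes, so it is a description and no independent support. The log2 differences were −3.18 for *Acod1*, −2.73 for *Nampt*, −2.52 for *Bst1* and −2.33 for *Cd38*, with 3 libraries in each group. *Bst1* and *Cd38* each stood higher with IFN-γ + *E. coli* and lower with IL-4, in all 3 libraries a group. *Acod1* and *Nampt* moved far with IFN-γ + *E. coli* and little with IL-4. With the ceiling correction the *Nampt* difference was −3.32. The sets differ in file layout, depth and count ceiling, and the part of these differences was not tested.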

How the results depend on the processing

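Single members were recomputed for the direct comparisons, the interaction and the difference between the IL-4 and IFN-γ + *E. coli* responses. Of these values, 550 stayed on their side of the threshold, 14 passed it newly and 12 lost it. Against unstimulated cells 392 member values moved by less than their SE and 26 by more. For genes of the pathway lists that were recomputed singly, some of them not named in the text, 794 kept their side, 5 were gained and 38 lost. A call changed sign for 1, *Slc3a2* with IL-4, at log2 0.10 with all 6 unstimulated libraries as 1 group. Values that were not called could also change sign, such as *Pnp* with IL-4, at log2 −0.065 to 0.291 over 6 fits that each left out 1 library. For IFN-γ + *E. coli* against IFN-γ the member count of 1 became 0 under DESeq2, 0 with at least 10 counts in every library (each losing *Acod1*), 2 with no filter on low counts (adding *Cd38*) and 0 to 1 with a library left out. For IFN-γ against *E. coli* the count of 3 became 5 with no filter (adding *Bst1* and *Cd38*) and 3 to 5 with a library left out. With at least 10 counts in every library *Ido1* was not tested, and the counts became 2 for IFN-γ against *E. coli* and 4 for IFN-γ + *E. coli* against *E. coli*. The interaction count of 0 became 1 (*Bst1*) with no filter and 0 to 1 with a library left out. For *E. coli* against unstimulated the 28 other pathway genes became 14 with all 6 unstimulated libraries as 1 group (12 shared) and 17 to 29 with a library left out, and for IL-4 the 8 became 3 to 10. Causes were not tested, but fits without a library or with fewer genes hold less data. With the replicate block among stimulated libraries, the counts were 2 for IFN-γ + *E. coli* against IFN-γ (adding *Cd38*), 5 for IFN-γ against *E. coli* (adding *Bst1* and *Cd38*) and 5 as before for IFN-γ + *E. coli* against *E. coli*. Same-numbered libraries deviated together with r from −0.045 to 0.331. No r was computed for libraries of different number, so whether they share more than a number cannot be told from these values. The main fits used no block, and unstimulated libraries carry letters. Over all genes the block fit, which left out unstimulated libraries, called 1430 for IFN-γ + *E. coli* against IFN-γ in place of 1209. It called 3447 against *E. coli* in place of 3240, and 2750 for IFN-γ against *E. coli* in place of 2525. The ceiling correction left all member counts of calls as they were. Depth limits *Ido1*, *Naprt*, *Nmnat1* and *Nmnat3* most, and *Kynu* and *Kmo* lay at or under the floor.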
